A study of Homo sapiens with 11 samples.

Results

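The 10 genes described here encode cytosolic and mitochondrial heat shock chaperones, and were taken by name from the 33080 genes of the deposited tables. They are HSP90AA1 and HSP90AB1, the HSP110 genes HSPH1 and HSPA4, the constitutive HSP70 gene HSPA8, the J-domain genes DNAJA1 and DNAJB1, the small heat shock protein gene HSPB1, and the mitochondrial chaperonin genes HSPD1 and HSPE1. All 10 were measured by RNA sequencing of total RNA in 769-P, an established human clear-cell renal carcinoma line. The groups were cells with a second siRNA against AKR1A1 (si2, 4 libraries), cells with a first siRNA against AKR1A1 (si1, 3 libraries) and cells with a control siRNA (siSCR, 4 libraries). Every group, siSCR included, had 48 h of lipid transfection, with the siRNA labelled at 20 µM. AKR1A1 encodes an aldehyde reductase of the aldo-keto reductase family. The labels write the genotype of the si1 and si2 cells as AKR1A1-/-, although the treatment was transient and siRNA lowers a transcript without deleting the gene. The labels do not say whether libraries of 1 group came from separate cultures, so p-values here weigh a difference against library-to-library spread that may be technical. In bulk RNA, fewer cells of a kind and less RNA per cell cannot be told apart.

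Heat shock chaperones bind unfolded or partly folded proteins, and most pass them through cycles of ATP hydrolysis. J-domain proteins such as DNAJA1 and DNAJB1 deliver substrates to HSP70, HSP110 proteins reset HSP70 by exchanging its nucleotide, and HSP90 receives kinases and steroid receptors from HSP70 for the last steps of folding. In mitochondria, the HSPD1 chamber closes with a lid of HSPE1. Many of these genes are induced by the transcription factor HSF1, which binds as a trimer to heat shock elements made of inverted GAA repeats.

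The promoters of 3 chaperones on which the values below turn are shown with the stretches around the heat shock elements of 3 others. They were read from RefSeq windows on GRCh38.p14 that run from 250 bases before a start site to 50 after it. Capitals mark a match to a heat shock element of 3 units, GAANNTTCNNGAA or TTCNNGAANNTTC, and, in HSP90AA1, also to one of 2 units, GAANNTTC or TTCNNGAA. Both strands were searched, and each element of 3 units also holds elements of 2 units. The HSP90AA1 window at chr14:102086995-102087294 (minus strand) has matches that begin 88 and 68 bases before the start, the HSPD1 window at chr2:197499791-197500090 (minus strand) has overlapping matches from 245 bases before it, and the HSPH1 window at chr13:31162339-31162638 (minus strand) has none.
HSP90AA1: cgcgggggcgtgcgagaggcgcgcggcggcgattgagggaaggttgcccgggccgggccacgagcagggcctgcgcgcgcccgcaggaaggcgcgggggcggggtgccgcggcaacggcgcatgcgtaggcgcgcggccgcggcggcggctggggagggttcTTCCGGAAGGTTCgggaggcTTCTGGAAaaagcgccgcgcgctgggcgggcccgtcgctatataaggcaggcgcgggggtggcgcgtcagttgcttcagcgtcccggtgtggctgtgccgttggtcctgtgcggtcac
HSPD1: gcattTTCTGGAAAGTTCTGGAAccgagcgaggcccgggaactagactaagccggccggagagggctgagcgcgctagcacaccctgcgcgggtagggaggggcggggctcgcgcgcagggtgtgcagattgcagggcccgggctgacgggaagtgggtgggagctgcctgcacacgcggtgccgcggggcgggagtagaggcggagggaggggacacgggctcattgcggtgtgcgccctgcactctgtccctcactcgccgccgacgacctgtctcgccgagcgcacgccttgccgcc
HSPH1: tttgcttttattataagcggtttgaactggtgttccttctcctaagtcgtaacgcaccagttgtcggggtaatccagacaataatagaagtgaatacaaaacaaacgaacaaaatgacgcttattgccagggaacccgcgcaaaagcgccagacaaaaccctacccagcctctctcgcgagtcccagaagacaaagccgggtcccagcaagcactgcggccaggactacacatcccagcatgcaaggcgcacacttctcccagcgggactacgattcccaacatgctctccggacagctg
The shorter stretches of 60 bases lie at chr6:44247755-44247814 and chr6:44247808-44247867 (HSP90AB1, plus strand), chr11:123062327-123062386 and chr11:123062155-123062214 (HSPA8, minus strand) and chr9:33025253-33025312 (DNAJA1, plus strand).
HSP90AB1, distal: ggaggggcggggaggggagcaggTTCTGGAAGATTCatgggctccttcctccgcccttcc
HSP90AB1, proximal: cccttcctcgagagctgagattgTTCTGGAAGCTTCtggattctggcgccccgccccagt
HSPA8, distal: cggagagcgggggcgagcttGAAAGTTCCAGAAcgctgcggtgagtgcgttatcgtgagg
HSPA8, proximal: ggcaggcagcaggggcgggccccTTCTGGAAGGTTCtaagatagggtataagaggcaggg
DNAJA1: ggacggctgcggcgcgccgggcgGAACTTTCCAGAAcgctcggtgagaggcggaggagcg
In all, 16 windows matched the 10 genes by symbol. The element of 3 units was found in 5 windows of 5 genes, HSP90AA1, HSP90AB1, HSPA8, DNAJA1 and HSPD1, against 172 of all 35116 windows (0.49%). The element of 2 units was found in 8 windows of 7 genes, which adds DNAJB1 and HSPB1, against 4737 of all windows (13.5%). No window of HSPH1, HSPA4 or HSPE1 held either. The HSPE1 window begins at chr2:197500129, shortly past the HSPD1 window that ends at chr2:197500090. The HSPD1 matches thus lie upstream of HSPE1, just outside its window. A match describes the letters of a window and is not a measured binding site.

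Levels are normalized counts, that is reads per gene scaled by the authors for library depth and deposited as log2 values, and gene positions are those of GENCODE 29 on GRCh38. Differences are log2 fold changes from limma with their standard errors (SE), and a gene was called when its p, adjusted over all genes tested, was under 0.05. The targeted transcript was lower in every si2 and si1 library than in any siSCR library. AKR1A1 (chromosome 1, 45550543 to 45570049, plus strand) had 56.6, 32.1, 48.3 and 46.1 normalized counts in si2 cells and 81.7, 23.6 and 45.1 in si1 cells, against 390.4, 256, 200.1 and 242 in siSCR cells. The si1 change on the log2 scale was -2.54 ± 0.42 (SE, limma adjusted p = 0.0357) and the si2 change was -2.53 ± 0.24 (adjusted p = 0.00218). The si1 call held in 1 of 7 fits that left out a library, that without the first siSCR library (adjusted p = 0.021), and without any other its adjusted p was 0.0659 to 0.126, with the change between -2.98 and -2.10; the si2 call held in 8 of 8. Of 8 renal carcinoma line markers, 7 had a mean of at least 10 normalized counts in every group, while CA9 was listed at 0 in all 11 libraries, as were the 4 endothelial markers. Of the leukocyte markers, CD68 had 33.1 to 112 normalized counts over the 11 libraries and no other exceeded 2.10, and of the 5 fibroblast markers COL1A1 had 12.3 to 58.4 and no other exceeded 9.17. The libraries held 2108546 to 5939514 reads counted on genes. The first siSCR library stood apart from the other siSCR libraries: mitochondrial transcripts made up 12.1% of its reads, against 3.46% to 4.46% in the other 3. That share was 4.59% to 5.12% in si2 libraries and 6.57% to 11.1% in si1 libraries. The second si1 library had 11618 genes detected, against 13154 to 14355 in the other 10.

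As a group, the 10 chaperones took 1.30%, 1.12%, 0.964% and 1.12% of the counted reads in si2 libraries and 0.729%, 0.827% and 0.876% in si1 libraries, against 0.945%, 1.45%, 1.39% and 1.39% in siSCR libraries. The si1 libraries lay below every si2 and every siSCR library, and the first siSCR library lay below every si2 library. For each of the 10 chaperones the first siSCR library had the lowest level of its group. These same 4 libraries, the 3 of si1 and the first of siSCR, had the highest mitochondrial shares, whose part in the differences was not tested. Mitochondrial reads are among the counted reads, so a high mitochondrial share lowers the chaperone share by construction. The order of the libraries without mitochondrial reads was not computed.

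**Figure D1:**
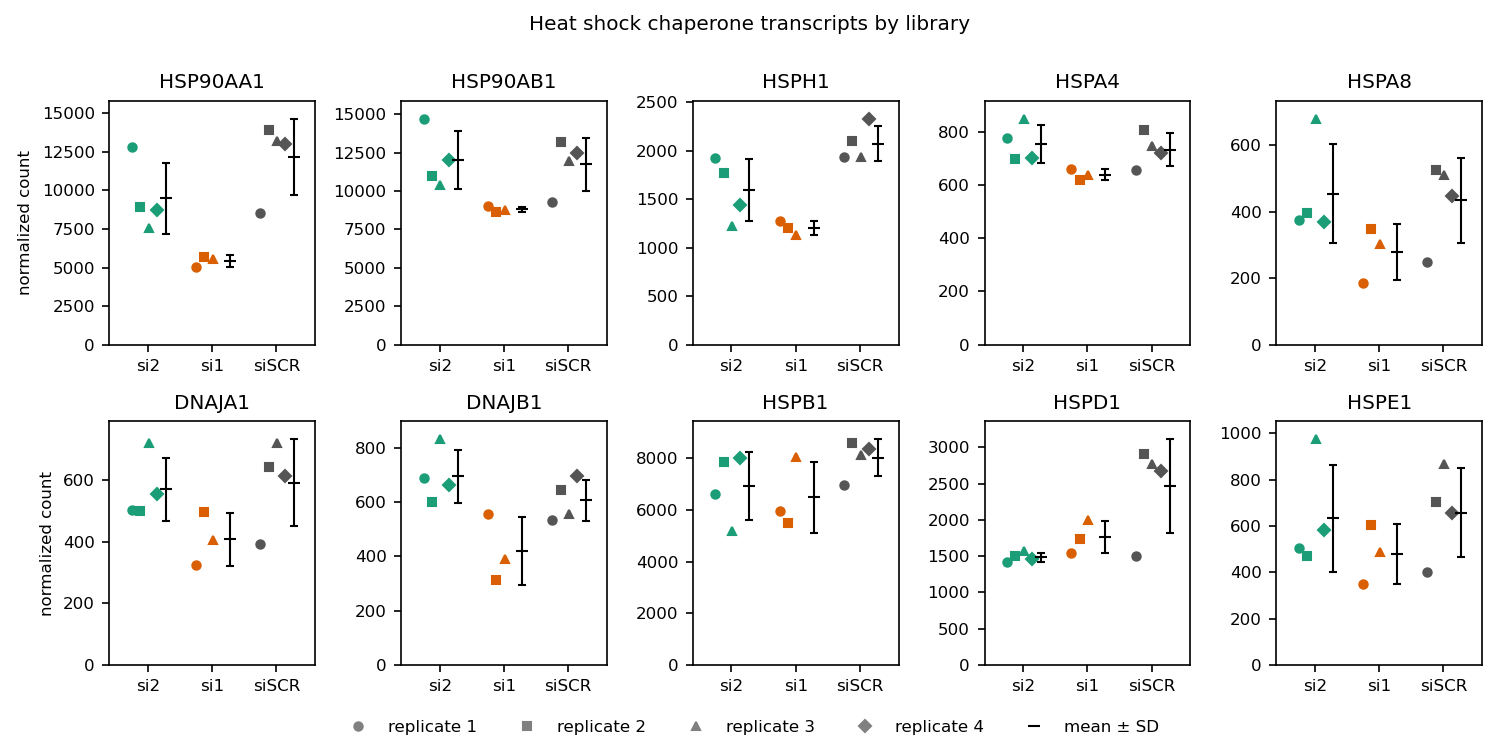
Normalized count (vertical axis, from 0) of each of the 10 chaperone transcripts in every library of si2, si1 and siSCR cells; symbols give the replicate number and bars the mean ± SD (n = 4, 3 and 4). The si1 libraries are below all siSCR libraries for HSP90AA1, HSP90AB1 and HSPH1, and the first siSCR library is the lowest of its group for 10 of the 10.

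In si1 cells the fitted difference from siSCR cells was below 0 for 10 of the 10 chaperones, with a median log2 fold change of -0.48, against -0.03 over all 10517 genes tested, 52.1% of which lay below 0. Every si1 library lay below every siSCR library for 3 of the 10, HSP90AA1, HSPH1 and HSP90AB1. Over all genes tested, 10.9% had such ranges in this direction. None of the 10 passed limma at an adjusted p under 0.05, a level that 1.72% of all genes passed. At an unadjusted p under 0.05 there were 3 (HSP90AA1, HSPH1 and DNAJB1), where 12.4% of all genes were that far below siSCR. HSP90AA1 and HSPH1 lay just outside the threshold, and both passed with limma-trend and with limma-voom on the recovered reads, the 2 of 10 that did. Those fits called more genes in general, 712 and 582 of the 10517. With no filter the limma adjusted p of HSP90AA1 was 0.116 and that of HSPH1 0.144. In the authors' deposited table of the same comparison, 2 of the 10 had an adjusted p under 0.05, HSP90AA1 (log2 fold change -1.11, adjusted p = 1.02e-06) and HSPH1 (-0.77, adjusted p = 2.28e-05). The share of all genes under that level in the authors' table was not counted, so these 2 cannot be set against it.

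For the second siRNA the differences were on both sides of 0. In si2 cells 6 of the 10 lay below siSCR and 4 above, with a median log2 fold change of -0.05, against -0.01 over 10249 genes, 50.9% of which lay below 0. Every si2 library was below every siSCR library for 1 of the 10, HSPH1, where 5.5% of all genes had such ranges. None of the 10 was called with limma, against 3.12% of all genes, and 1, HSPD1, lay below siSCR with an unadjusted p under 0.05, as did 9.22% of all genes. Limma-trend and limma-voom, which called 482 and 463 of the 10249 genes, called none either, with 2 of the 10 at an unadjusted p under 0.05 in each. The authors' deposited table had 1 of 10 at an adjusted p under 0.05, HSPD1 (log2 fold change -0.66, adjusted p = 0.00985), and its share over all genes was not counted. Both comparisons used the same 4 siSCR libraries. Without the first of them, 9 of the 10 lay below siSCR in si2 cells with a median of -0.25, and the si1 median was -0.66. Without the third of them, 4 of the 10 lay below siSCR in si2 cells with a median of 0.05, and the si1 median was -0.40.

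Set directly against each other, si2 cells were above si1 cells for 9 of the 10 chaperones, with HSPD1 the exception. The median log2 difference was 0.41, against 0.03 over 10448 genes, 47.3% of which lay below 0. Every si2 library lay above every si1 library for 6 of the 10: both HSP90 genes, HSPA4, HSPA8, DNAJA1 and DNAJB1. Of all genes, 13.4% had such ranges in this direction. Limma called none of the 10 at an adjusted p under 0.05, against 6.74% of all genes. There were 4 above si1 with an unadjusted p under 0.05 (HSP90AA1, DNAJB1, HSP90AB1 and HSPA8), where 13.5% of all genes were, and 2, HSP90AA1 and DNAJB1, were called with limma-trend and with limma-voom. Those fits called 627 and 644 of the 10448 genes higher in si2 than in si1 cells, and 437 and 528 lower. No siSCR library enters this comparison. Under upper-quartile rescaling of the libraries the median of the 10 was -0.43 for si1 over siSCR, -0.03 for si2 over siSCR and 0.38 for si2 over si1.

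**Figure D2:**
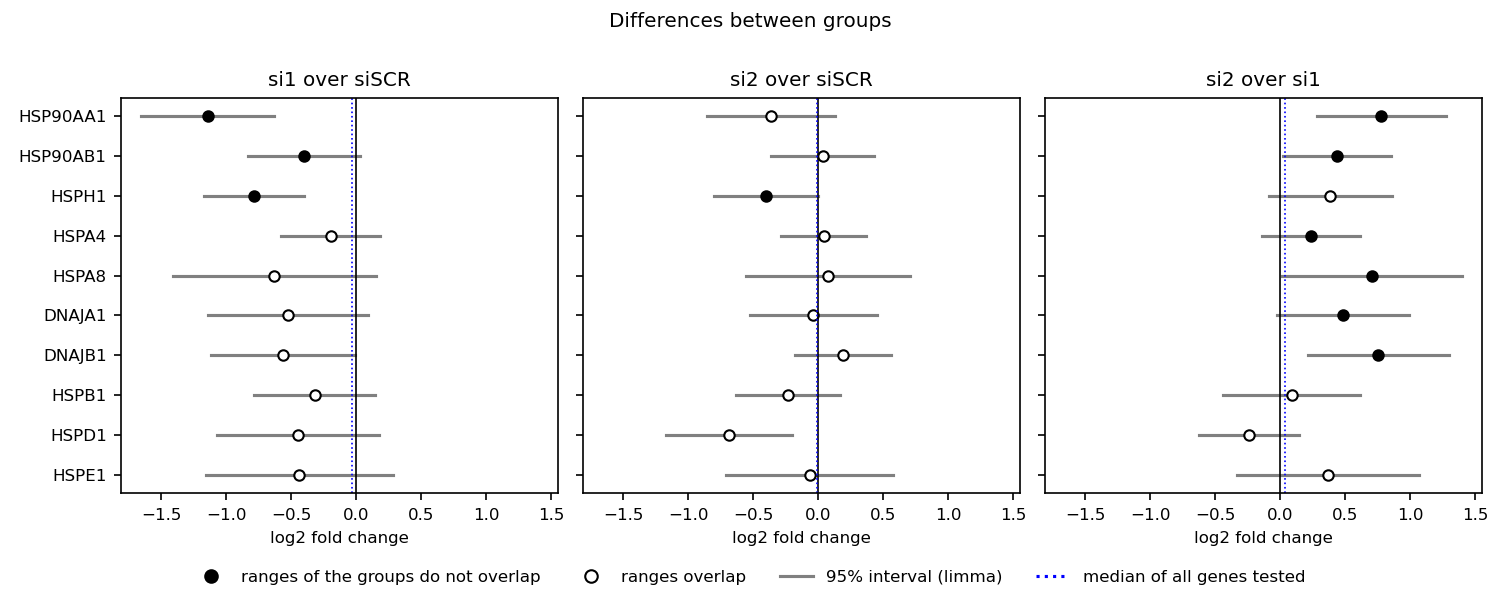
Log2 fold change (horizontal axis) of the 10 chaperones for si1 over siSCR, si2 over siSCR and si2 over si1, with 95% intervals from limma; filled points mark groups whose ranges do not overlap and the dotted line the median of all genes tested. For si1 over siSCR all 10 points lie left of 0, from -1.14 (HSP90AA1) to -0.20 (HSPA4), while for si2 over siSCR they lie on both sides.

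The levels spanned a wide range. Per kilobase of exon in siSCR cells, HSPB1 stood at 4906 ± 439.8 normalized counts, HSP90AB1 at 3938 ± 578 and HSP90AA1 at 2318 ± 469.8 (SD, n = 4). Per kilobase in the same cells, HSPD1 stood at 580.4 ± 153, HSPE1 at 333 ± 97.5, HSPH1 at 247 ± 22.0, DNAJA1 at 216 ± 51.4, DNAJB1 at 165 ± 20.6, HSPA4 at 142 ± 12.1 and HSPA8 at 89.4 ± 26.3. The mean ± SD ranges of neighbours in this order overlapped, except between HSP90AB1 and HSP90AA1, between HSP90AA1 and HSPD1 and between HSPA4 and HSPA8. The 3 genes at the top kept this order in si2 cells (4230 ± 807, 4033 ± 637 and 1808 ± 437.5, n = 4) and in si1 cells (3977 ± 842, 2954 ± 61.4 and 1034 ± 68.4, n = 3). The annotation names 17 pseudogene copies of HSPA8, 26 of HSPE1, 17 of HSPD1 and 6 of DNAJA1. It also names 5 of HSP90AB1, 4 of HSP90AA1, 2 of HSPB1 and 1 of DNAJB1, and none of HSPH1 or HSPA4. Reads that match a copy may have been left uncounted or counted elsewhere. The levels of the genes with copies, and ratios between them, are therefore uncertain.

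HSP90AA1 (chromosome 14, 102080738 to 102139699, minus strand), the stress-inducible cytosolic HSP90, was the chaperone farthest from siSCR in si1 cells. It had 12811, 8901, 7535 and 8703 normalized counts in si2 cells, 5014, 5684 and 5574 in si1 cells, and 8514, 13923, 13216 and 13012 in siSCR cells. The si1 libraries were below every library of both other groups, whereas the first siSCR library lay within the si2 range. The means were 9488 ± 2296 in si2, 5424 ± 359 in si1 and 12166 ± 2466 in siSCR cells (SD, n = 4, 3 and 4). The si1 difference from siSCR was -1.14 ± 0.22 on the log2 scale (95% interval -1.65 to -0.63, limma adjusted p = 0.0512), 0.453 of the siSCR level. The si2 difference from siSCR was -0.36 ± 0.22 (-0.85 to 0.13, adjusted p = 0.405), and si2 over si1 was 0.78 ± 0.22 (0.28 to 1.28, adjusted p = 0.0717). Without the first siSCR library the si1 difference was -1.30 with an adjusted p of 0.00982, the 1 of 7 fits leaving out a library that passed, and over the alternatives tried that p ran from 0.00708 to 0.159.

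HSP90AB1 (chromosome 6, 44246166 to 44253888, plus strand), the constitutive cytosolic HSP90, varied less within each group. It had 14685, 10990.0, 10394 and 12009 normalized counts in si2 cells, 8999, 8637 and 8773 in si1 cells, and 9268, 13222, 11979.5 and 12476 in siSCR cells. The si1 values sat in a narrow band below both other groups, close under the first siSCR library. The si1 difference from siSCR was -0.40 ± 0.19 (95% interval -0.83 to 0.03, limma adjusted p = 0.235) and the si2 difference 0.03 ± 0.18 (-0.36 to 0.43, adjusted p = 0.942). The si2 over si1 difference was 0.44 ± 0.18 (adjusted p = 0.180).

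Within a library, the balance between the inducible and the constitutive HSP90 transcript separated all 3 groups. The ratio of HSP90AA1 to HSP90AB1 normalized counts was 0.872, 0.810, 0.725 and 0.725 in si2 libraries, 0.557, 0.658 and 0.635 in si1 libraries, and 0.919, 1.05, 1.10 and 1.04 in siSCR libraries. No 2 groups overlapped, and the first siSCR library, low in HSP90AA1, kept its place with the siSCR group on this measure, at the bottom of that group. The mean ratio was 0.783 ± 0.0718 in si2, 0.617 ± 0.0529 in si1 and 1.03 ± 0.0784 in siSCR cells (SD, n = 4, 3 and 4). The log2 ratio differed by -0.74 for si1 and by -0.40 for si2 from siSCR, with exact two-sided permutation p-values of 0.0571 and 0.0286, the smallest that 35 and 70 splits allow. Si2 differed from si1 by 0.34 (exact permutation p = 0.0571, the smallest possible). The ratios were chosen after the values had been seen, and over the 6 ratio tests the adjusted p was 0.0857 for each of these 3. WDR20 on the opposite strand covers 3.75% of the exon bases of HSP90AA1, and the strandedness of the counting was not given in the sources used here.

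**Figure D3:**
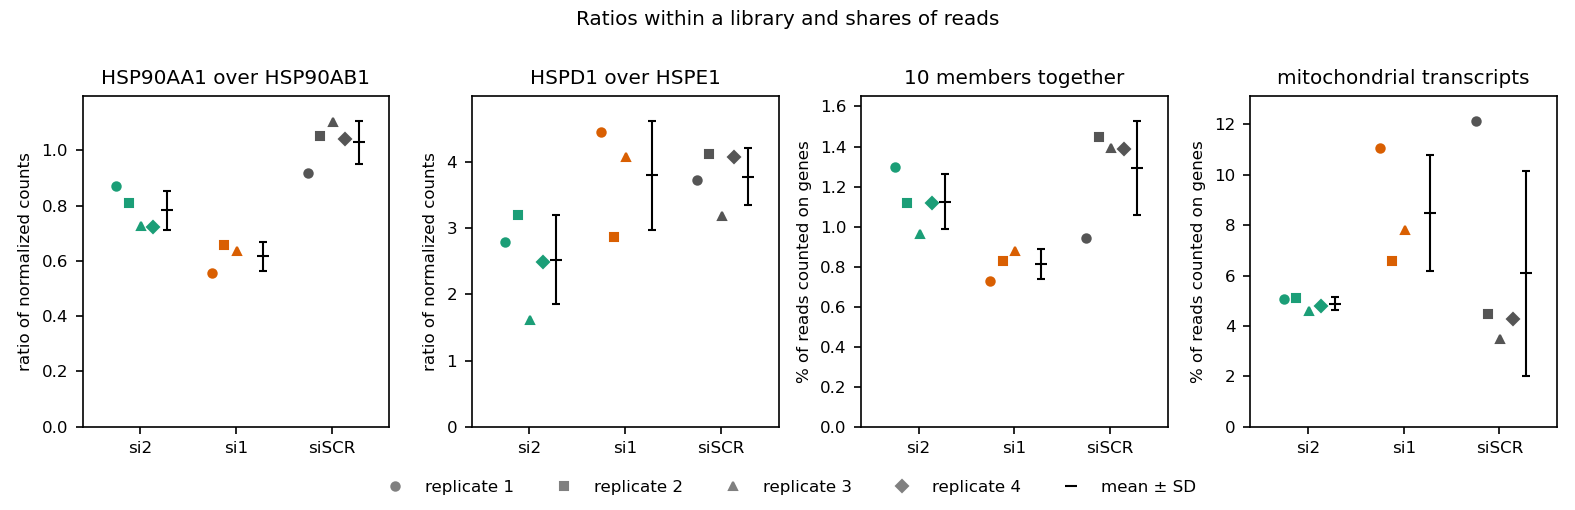
From left to right, the within-library ratio of HSP90AA1 to HSP90AB1 and of HSPD1 to HSPE1 normalized counts, and the share of counted reads (%) taken by the 10 chaperones and by mitochondrial transcripts, for each library of si2, si1 and siSCR cells; bars are the mean ± SD (n = 4, 3 and 4). The HSP90 ratio keeps the 3 groups apart, with si1 lowest at 0.557 to 0.658, and the first siSCR library has the highest mitochondrial share, 12.1%.

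HSPH1 (chromosome 13, 31134974 to 31162388, minus strand), an HSP110 that exchanges nucleotide on HSP70, was the 1 chaperone of the 10 that lay below all siSCR libraries with both siRNAs. It had 1926, 1773, 1220.3 and 1443 normalized counts in si2 cells, 1272, 1200.3 and 1129 in si1 cells, and 1933, 2095, 1937 and 2325 in siSCR cells. The first si2 library came within a few counts of the lowest siSCR library. The means were 1591 ± 319 in si2, 1200.4 ± 71.9 in si1 and 2072 ± 185 in siSCR cells (SD, n = 4, 3 and 4). The log2 difference from siSCR was -0.78 ± 0.17 in si1 cells (95% interval -1.17 to -0.40, limma adjusted p = 0.0601) and -0.40 ± 0.18 in si2 cells (-0.80 to 0.00, adjusted p = 0.257). Unlike for HSP90AA1, the first siSCR library, at 1933, stood close to the next 1 of its group. Leaving it out gave -0.82 for si1 with an adjusted p of 0.0272, while the other 6 fits that left out a library had adjusted p-values of 0.101 to 0.177. Over the alternatives tried that p ran from 0.0121 to 0.19. The si2 over si1 difference was 0.38 ± 0.21 (adjusted p = 0.287) with overlapping ranges.

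HSPA4 (chromosome 5, 133051962 to 133106449, plus strand), another HSP110, had the si1 value nearest to siSCR of the 10. It had 776, 697, 848 and 700.3 normalized counts in si2 cells, 659, 619 and 636 in si1 cells, and 656, 807, 747 and 721 in siSCR cells. The si1 library highest in HSPA4 was a few counts above the lowest siSCR library. The si1 difference from siSCR was -0.20 ± 0.16 (95% interval -0.58 to 0.18, limma adjusted p = 0.484), the si2 difference 0.04 ± 0.15 (-0.29 to 0.37, adjusted p = 0.908) and si2 over si1 0.24 ± 0.16 (adjusted p = 0.401).

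HSPA8 (chromosome 11, 123057489 to 123063230, minus strand), the constitutive HSP70 that serves folding and uncoating of clathrin vesicles, was more variable. It had 376, 395, 678 and 369 normalized counts in si2 cells, 185, 347 and 302 in si1 cells, and 249, 527, 511 and 447 in siSCR cells. The third si2 library was far above the other 3, and the first si1 and first siSCR libraries were the lowest of their groups. On the log2 scale, the difference from siSCR was -0.63 ± 0.34 for si1 (95% interval -1.41 to 0.15, limma adjusted p = 0.284) and 0.08 ± 0.28 for si2 (-0.56 to 0.71, adjusted p = 0.915). For si2 over si1 it was 0.71 ± 0.30 (0.01 to 1.40, adjusted p = 0.191), with no overlap.

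DNAJA1 (chromosome 9, 33025211 to 33039907, plus strand), a cytosolic partner of HSPA8, had 502, 500.0, 719 and 553 normalized counts in si2 cells, 322, 494 and 406 in si1 cells, and 391, 642, 718 and 612 in siSCR cells. Its si1 values reached up to the si2 range without entering it, and the first siSCR library lay among the si1 libraries. Relative to siSCR, the log2 difference was -0.52 ± 0.27 in si1 cells (95% interval -1.14 to 0.09, limma adjusted p = 0.265) and -0.04 ± 0.22 in si2 cells (-0.52 to 0.45, adjusted p = 0.951), and si2 over si1 was 0.49 ± 0.22 (adjusted p = 0.215).

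DNAJB1 (chromosome 19, 14514770 to 14529770, minus strand), the heat-inducible J-domain protein that also binds HSF1, was the chaperone with the highest si2 values relative to siSCR. It had 689, 599, 832 and 663 normalized counts in si2 cells, 558, 312 and 392 in si1 cells, and 535, 644, 555 and 696 in siSCR cells. Each si2 library was above each si1 library, while 1 si1 library reached into the siSCR range. The log2 difference from siSCR was 0.19 ± 0.17 in si2 cells (95% interval -0.18 to 0.56, limma adjusted p = 0.564) and -0.56 ± 0.24 in si1 cells (-1.11 to -0.01, adjusted p = 0.203). The si2 over si1 difference was 0.76 ± 0.24 (0.21 to 1.30, adjusted p = 0.0951), and this p ran from 0.0266 to 0.224 over the alternatives tried. TECR on the opposite strand covers 5.75% of its exon bases.

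HSPB1 (chromosome 7, 76302544 to 76304295, plus strand) encodes HSP27, an ATP-independent holdase that keeps unfolded proteins soluble. It had 6599, 7872, 5176 and 7997 normalized counts in si2 cells, 5942, 5488 and 8065 in si1 cells, and 6981, 8609, 8121 and 8353 in siSCR cells. The groups overlapped in every pair, with the third si2 library and the second si1 library the lowest of their groups. On the log2 scale, the difference from siSCR was -0.32 ± 0.20 in si1 cells (95% interval -0.78 to 0.14, limma adjusted p = 0.354) and -0.23 ± 0.18 in si2 cells (-0.63 to 0.17, adjusted p = 0.524). Si2 over si1 was 0.09 ± 0.23 (adjusted p = 0.842).

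Of the mitochondrial pair, the HSP60 gene HSPD1 (chromosome 2, 197486581 to 197516737, minus strand) was the chaperone farthest below siSCR in si2 cells. It had 1416, 1502, 1567 and 1454 normalized counts in si2 cells, 1546, 1743 and 1994 in si1 cells, and 1503, 2905, 2771 and 2678 in siSCR cells. All si2 and si1 libraries lay below 3 of the siSCR libraries, and the first siSCR library lay among the si2 values. The means were 1485 ± 65.2 in si2, 1761 ± 224 in si1 and 2464 ± 648 in siSCR cells (SD, n = 4, 3 and 4). Relative to siSCR, the log2 difference was -0.68 ± 0.22 for si2 (95% interval -1.17 to -0.20, limma adjusted p = 0.124) and -0.45 ± 0.27 for si1 (-1.07 to 0.18, adjusted p = 0.338). Without the first siSCR library these were -0.91 (adjusted p = 0.00396) and -0.67 (adjusted p = 0.0503). Without any other single library the adjusted p was 0.191 to 0.283 for si2 and 0.365 to 0.567 for si1. The si2 over si1 difference, -0.24 ± 0.17 (adjusted p = 0.410), was the only one of the 10 below 0.

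HSPE1 (chromosome 2, 197499994 to 197503457, plus strand) encodes the HSP10 lid of the HSPD1 chamber. By the RefSeq start sites of the windows above, it lies head to head with HSPD1 on the opposite strand. Its annotated span lies wholly within that of HSPD1. HSPE1 had 506, 469, 975 and 583 normalized counts in si2 cells, 348, 606 and 488 in si1 cells, and 403, 704, 869 and 657 in siSCR cells. In HSPE1 the third si2 library exceeded every siSCR library. That library was also the highest of its group in HSPA8, DNAJA1, DNAJB1, HSPA4 and HSPD1. In HSP90AA1, HSP90AB1, HSPH1 and HSPB1 it was the lowest of its group. The log2 difference from siSCR was -0.44 ± 0.31 in si1 cells (95% interval -1.16 to 0.28, limma adjusted p = 0.412) and -0.07 ± 0.29 in si2 cells (-0.71 to 0.58, adjusted p = 0.930), and si2 over si1 was 0.37 ± 0.31 (adjusted p = 0.483). Other annotated genes cover 23.9% of the HSPE1 exon bases, with HSPD1 alone covering 14.2%, and the read-through gene HSPE1-MOB4 was listed at 0 in all libraries.

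The ratio of HSPD1 to HSPE1 normalized counts was 2.80, 3.20, 1.61 and 2.49 in si2 libraries, 4.45, 2.87 and 4.08 in si1 libraries, and 3.73, 4.13, 3.19 and 4.08 in siSCR libraries. The si2 values were mostly the lower ones, with the second si2 library just inside the siSCR range. The log2 ratio differed from siSCR by -0.62 in si2 cells (exact two-sided permutation p = 0.0571, adjusted p = 0.0857 over the 6 ratio tests) and by -0.01 in si1 cells (exact permutation p = 0.971). Si2 differed from si1 by -0.61 (exact permutation p = 0.114).

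**Figure D4:**
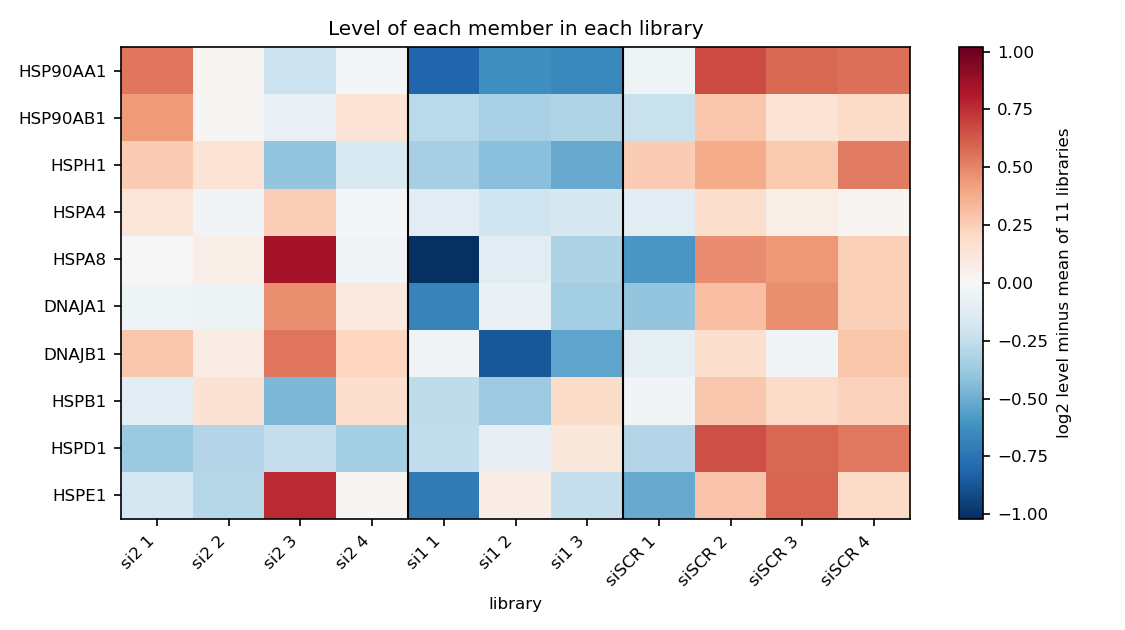
Log2 level of each chaperone (rows) in each library (columns, grouped as si2, si1 and siSCR), shown as the difference from that gene's mean over the 11 libraries. The si1 columns are below the mean for most rows, and the first siSCR column is below it while the other siSCR columns are above it for 8 of the 10 rows, HSPH1 and DNAJB1 being the exceptions.

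Across the 11 libraries the 10 chaperones did not vary as 1 block. The levels of HSPA8 and DNAJA1 had a Pearson r of 0.967 and those of HSPE1 and DNAJA1 of 0.949, while HSP90AA1 was most like HSP90AB1 (0.898), and HSPH1 most like HSP90AA1 (0.894). HSPA4 and DNAJB1 were most like each other (0.820), and HSPB1 and HSPD1 had no partner above 0.590 and 0.559. Over the 45 pairs the median r was 0.50, from -0.02 for HSPD1 with DNAJB1 upward. The points share the group structure, the libraries and their normalization, so the values describe these libraries only. Within groups, HSPA8 with DNAJA1 (0.958) and HSP90AA1 with HSP90AB1 (0.943) stayed close, while HSP90AA1 with HSPH1 was at 0.630. HSPD1, without a close partner over all libraries, had a within-group r of 0.798 with DNAJA1 and 0.795 with HSPA8. Some within-group values were negative, such as -0.533 for HSPH1 with HSPE1. The mean centred log2 level of the 10 was 0.09, -0.02, 0.15 and 0.01 in si2 libraries, -0.45, -0.30 and -0.28 in si1 libraries, and -0.20, 0.37, 0.33 and 0.31 in siSCR libraries. The first siSCR library lay between the si1 and si2 libraries on this scale.

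The genes outside the 10 whose level over the 11 libraries was most like this mean were TUBB4B, a beta tubulin (r = 0.981), ARL6IP1, a shaper of endoplasmic reticulum membranes (0.979), SNRPC, a protein of the U1 spliceosomal particle (0.976), PKMYT1, a kinase that inhibits CDK1 (0.974), and AURKB, the kinase of the chromosomal passenger complex (0.971). They were taken from 4916 genes with a mean of at least 100 normalized counts, of which 1268 had r above 0.5. TUBB4B averaged 1965 ± 70.7 normalized counts in si2, 880 ± 161 in si1 and 2662 ± 952 in siSCR cells (SD, n = 4, 3 and 4), with 1296 in the first siSCR library. AURKB averaged 341 ± 34.95 in si2, 186 ± 58.6 in si1 and 619 ± 281 in siSCR cells, with 204 in the first siSCR library. Both had their lowest siSCR value in the first siSCR library.

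**Figure D5:**
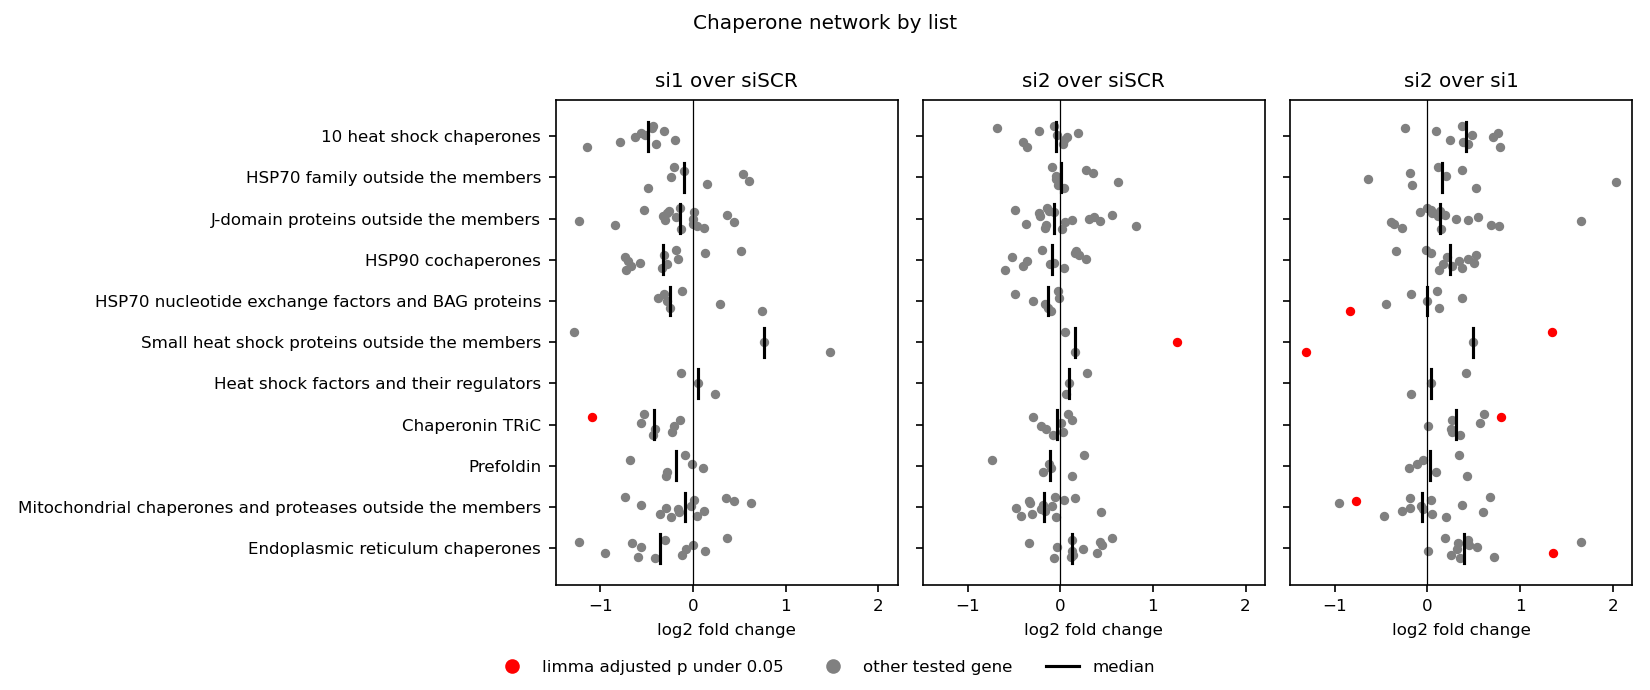
Log2 fold change (horizontal axis) of each tested gene in the 10 chaperones and in 10 lists of related genes (rows), for si1 over siSCR, si2 over siSCR and si2 over si1; red points have a limma adjusted p under 0.05 and bars mark medians. The red points are CCT7 for si1 over siSCR, HSPB8 for si2 over siSCR, and CCT7, HSPB11, CALR, BAG1, CRYAB and HTRA2 for si2 over si1.

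The wider chaperone network was described with 10 lists of 99 genes, of which 98 were in the tables and 84 or 85 were tested per comparison. Limma called 1 of 84 for si1 over siSCR (1.19%), 1 of 85 for si2 over siSCR (1.18%) and 6 of 85 for si2 over si1 (7.06%), against 1.72%, 3.12% and 6.74% of all genes. The median log2 fold changes of the tested genes were -0.19, -0.05 and 0.17.

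In the cytosol, the chaperonin TRiC, which folds actin and tubulin, lay below siSCR in si1 cells for 8 of its 8 subunits, with a median log2 fold change of -0.42. One of them passed the test: CCT7 fell to 643 ± 48.4 normalized counts in si1 cells (n = 3), against 1385 ± 223 in siSCR cells (n = 4), a change of -1.09 ± 0.20 (SE, limma adjusted p = 0.0447). This call held in 1 of 7 fits that left out a library, that without the first siSCR library (adjusted p = 0.0121). Without any other single library the adjusted p was between 0.0891 and 0.146. In si2 cells the TRiC median was -0.03 with none of 8 called, and CCT7 was higher than in si1 cells by 0.80 ± 0.16 (adjusted p = 0.0295), a call lost in 5 of 7 such fits (adjusted p 0.0545 to 0.1). The prefoldin subunits, which hand substrates to TRiC, had none of 6 called against siSCR, with medians of -0.18 in si1 and -0.11 in si2 cells.

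HSP90 cochaperones had none of 12 called with either siRNA, and 10 of the 12 lay below siSCR in si1 cells with a median of -0.32. PTGES3, the p23 cochaperone that closes the HSP90 clamp, averaged 1558 ± 181 normalized counts in si2, 1093 ± 31.8 in si1 and 1629 ± 181 in siSCR cells, and the si1 difference was -0.57 ± 0.17 (limma adjusted p = 0.112). CDC37, which brings kinases to HSP90, differed by -0.28 ± 0.20 in si1 cells (adjusted p = 0.407). In si2 cells the median of the cochaperones was -0.09.

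The HSP70 genes outside the 10 (7 tested for si1, 8 for si2) and the other J-domain genes (17 tested) had none called against siSCR. Their medians were -0.09 and -0.14 in si1 cells and 0.01 and -0.07 in si2 cells. HSPA4L, an HSP110 close to HSPA4, averaged 349.5 ± 48.0 normalized counts in si2, 544 ± 37.9 in si1 and 360 ± 36.4 in siSCR cells. Its si1 libraries lay above all siSCR libraries (0.60 ± 0.17, limma adjusted p = 0.105). Of 7 nucleotide exchange factors and BAG proteins none was called against siSCR (medians -0.25 in si1 and -0.13 in si2 cells). BAG1, which couples HSP70 to the proteasome, differed by -0.84 on the log2 scale in si2 over si1 cells (136 ± 13.1 against 243 ± 28.01 normalized counts, adjusted p = 0.0308), a call lost whichever library was left out (adjusted p 0.0506 to 0.0900).

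Of the small heat shock proteins outside the 10, 3 were tested, and all 3 lay above siSCR in si2 cells (log2 fold changes of 0.05 to 1.26), while 2 lay above and 1 below siSCR in si1 cells (-1.29 to 1.47). HSPB8, which works with BAG3 in selective autophagy, rose in si2 cells to 65.9 ± 3.32 normalized counts, against 27.0 ± 3.53 in siSCR cells (SD, n = 4 each), a change of 1.26 ± 0.15 (limma adjusted p = 0.00466). That call held in 8 of 8 fits that left out a library. In si1 cells HSPB8 was 0.77 above siSCR (limma adjusted p = 0.107), and si2 over si1 was 0.49 (adjusted p = 0.179). CRYAB, the alpha-B crystallin, averaged 108 ± 21.5 in si2, 269 ± 50.9 in si1 and 107 ± 68.1 normalized counts in siSCR cells. It was 1.47 ± 0.40 above siSCR in si1 cells (adjusted p = 0.0925) and fell by 1.32 in si2 relative to si1 cells (adjusted p = 0.0180), a call lost without the first or the second si2 library or si2 replicate 4 (0.0547 to 0.0567). HSPB2 on the opposite strand covers 20.6% of its exon bases. HSPB11, a part of the intraflagellar transport machinery despite its name, was higher in si2 than in si1 cells by 1.34 ± 0.32 (107 ± 37.3 against 40.6 ± 11.9, adjusted p = 0.0451), and that call was lost whichever library was left out (0.0518 to 0.120).

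Among the heat shock factors and their regulators none of 3 tested genes was called, with medians of 0.06 in si1 and 0.10 in si2 cells. HSF1 averaged 319 ± 55.2 normalized counts in si2, 363 ± 71.7 in si1 and 306 ± 49.9 in siSCR cells, with log2 differences from siSCR of 0.06 ± 0.18 in si2 cells (limma adjusted p = 0.894) and 0.24 ± 0.22 in si1 cells (adjusted p = 0.515). HSBP1, which binds the HSF1 trimer, differed by 0.29 ± 0.16 in si2 cells (adjusted p = 0.345) and by -0.13 ± 0.18 in si1 cells (adjusted p = 0.686). The transcript level of HSF1 does not measure its activity.

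In mitochondria, the other chaperones and proteases had none of 14 called against siSCR, with medians of -0.09 in si1 and -0.17 in si2 cells. HSPA9, the matrix HSP70 that works with HSPD1, averaged 684 ± 16.5 normalized counts in si2, 604 ± 116 in si1 and 721 ± 158 in siSCR cells. TRAP1, the mitochondrial HSP90, differed from siSCR by -0.42 ± 0.17 in si2 cells (limma adjusted p = 0.201) and by 0.04 ± 0.21 in si1 cells (adjusted p = 0.916). HTRA2, an intermembrane protease, differed by -0.78 on the log2 scale in si2 over si1 cells (38.4 ± 4.16 against 66.8 ± 11.0, adjusted p = 0.0498), a call lost whichever library was left out (0.0545 to 0.134), and other genes cover 36.9% of its exon bases.

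The endoplasmic reticulum chaperones, a separate folding system, had none of 12 called against siSCR. Of the 12, 9 lay below siSCR in si1 cells (median -0.36) and 3 in si2 cells (median 0.13), and the fitted differences of si2 over si1 ran from 0.0014 to 1.66 with 1 of 12 called. HSPA5, the HSP70 of that compartment, differed from siSCR by -0.41 ± 0.21 in si1 cells (limma adjusted p = 0.261) and by -0.06 ± 0.16 in si2 cells (adjusted p = 0.868). CANX, with a higher level, differed by 0.13 ± 0.19 in si1 cells (adjusted p = 0.698) and by 0.13 ± 0.14 in si2 cells (adjusted p = 0.653). CALR, the lectin chaperone calreticulin, was higher in si2 than in si1 cells by 1.35 ± 0.24 (3738 ± 519.7 against 1495 ± 415, adjusted p = 0.0207), a call lost without the first or the second si2 library or si2 replicate 4 (0.0502 to 0.0709).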

How the data were processed

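Total RNA of 11 libraries of 769-P cells (4 si2, 3 si1, 4 siSCR) was sequenced by the authors. Per the submitters' processing notes the tools were cutadapt, FastQC, STAR, HTSeq and DESeq2 with GRCh38, in versions not given in the sources used here. Per the labels' protocols, gene counts were scaled by relative log expression. The authors deposited 1 table per siRNA, whose library columns hold log2 values; on undoing the logarithm and subtracting 1, the values of each library came out as whole multiples of 1 step (100% within 0.01 read), which gave the reads used as depth and for limma-voom. The authors' deposited mean signal, log2 fold change and p-values were used only where that table is named.

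The plan assumed counts. The files hold log2 values, so each pair of groups was fitted with limma (version 3.58.1, R version 4.3.3) on these values with their pseudocount of 1. A gene was tested if its normalized count reached 10 in at least n libraries, n being the size of the smaller group. Two-sided p-values were adjusted by Benjamini-Hochberg, with calls at 0.05. The pseudocount makes fold changes of low genes too small. Fits were tested on simulated data. Errors are SE for log2 fold changes and SD for levels. Normalized counts per kilobase use merged GENCODE 29 exons. Alternatives were no filter, pseudocounts of 0.5 and 5, upper-quartile rescaling, limma-trend, limma-voom, all 11 libraries in 1 fit, a replicate block and leaving out each library.

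The 10 chaperones and the lists were chosen with earlier results of these data known. All 10 passed the filter. Genes named were all 10, AKR1A1, in each list up to 4 called genes with the largest fold change or, with none called, from the 2 of highest level, and the 5 genes most like the mean of the 10. Of the listed genes BAG6 had no match.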

Additional observations from a re-analysis of the deposited data

Results flagged for a closer look

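In 28 groups of 4 libraries tested for a library far from the other 3, 5 had one, where chance gives about 1 in 20. The 28 share the same libraries and partly the same reads, so the 5 are not separate outcomes. Their number cannot be weighed against that rate. The first siSCR library was set apart in 4 of the 5. It was the lowest siSCR library for each of the 10 chaperones, and was set apart for HSP90AA1 (8514 normalized counts, the others 13012 to 13923) and for HSPD1 (1503, the others 2678 to 2905). It also had the smallest share of reads on the 10 chaperones (0.945%, the others 1.39% to 1.45%) and the largest share of mitochondrial transcripts (12.1%, the others 3.46% to 4.46%). The third si2 library was the highest for HSPA8, with 678 normalized counts against 369 to 395 in the other si2 libraries.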

How the results depend on the processing

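Against 181 genes called for si1 over siSCR, no filter gave 5, a pseudocount of 5 gave 414, limma-trend 712, limma-voom 582 (43.5% of them lower, against 54.1%) and all 11 libraries in 1 fit 1141. For si2 over siSCR, against 320, no filter gave 108 and limma-trend 482. For si2 over si1, against 704, no filter gave 230, limma-trend 1064 and limma-voom 1172. Leaving out each library gave 0 to 1399, 88 to 1496 and 120 to 803 genes, with the 2 highest values of the siSCR comparisons reached without the first siSCR library. Fewer libraries or more genes tested enter by construction; for the rest the cause was not tested. Of the 10 chaperones, none was called for si1 over siSCR, but 2 were with a pseudocount of 5, limma-trend, limma-voom and all 11 libraries, and 0 to 2 on leaving out a library. For si2 over siSCR 0 to 1 were called on leaving out a library, and for si2 over si1 2 with limma-trend and 2 with limma-voom. On leaving out a library, the median of the 10 ran from -0.66 to -0.36 for si1 and from -0.25 to 0.051 for si2 over siSCR. Of the listed genes, 1 was called for si1 over siSCR, with 0 for no filter, 2 for a pseudocount of 5, 7 for limma-trend, 7 for limma-voom, 9 for all 11 libraries and 0 to 12 on leaving out a library. For si2 over siSCR it was 1, and 1 to 6 on leaving out a library. For si2 over si1 it was 6, with 0 for no filter, 10 for limma-voom and 0 to 3 on leaving out a library. Signs turned only on leaving out a library, and only in values near 0: for si2 over siSCR in HSP90AB1 (-0.075 to 0.0999), HSPA4 (-0.015 to 0.0896), HSPA8 (-0.17 to 0.19), DNAJA1 (-0.22 to 0.0696) and HSPE1 (-0.29 to 0.086), for si2 over si1 in HSPB1 (-0.024 to 0.25), and for si1 over siSCR in the log2 ratio of HSPD1 to HSPE1 (-0.13 to 0.18). Leaving libraries out of the ratios was chosen after seeing the data. With at most 5939514 reads counted on genes per library, HSPA8 had 201 to 712 reads and DNAJA1 270 to 1067; the effect of depth on their differences was not tested.

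The groups share replicate numbers, but nothing in the labels says that they mark a shared culture or day. Same-numbered libraries deviated from their group means with correlations of 0.402, 0.093 and 0.147 (si1 and siSCR). The correlations were 0.102, -0.0325, 0.176 and 0.0882 for si2 and siSCR, and 0.11, -0.00697 and 0.0399 for si2 and si1. Not every pair was above 0.1. Of the si1 libraries, replicates 1 and 3 were most like the siSCR library of their number, and replicate 2 was not. Of the si2 libraries, replicates 1, 3 and 4 were most like theirs among siSCR, and replicate 2 was not. Against si1, si2 replicate 1 was most like its own number, and replicates 2 and 3 were not. The first si1 and first siSCR libraries also had the highest mitochondrial shares of their groups (11.1% and 12.1%). With the replicate block 0, 175 and 6 genes were called for si1 over siSCR, si2 over siSCR and si2 over si1, none of the 10 chaperones among them, and 0 of the listed genes for si1 over siSCR and 0 for si2 over si1. The block kept only replicate numbers present in both groups, so siSCR replicate 4 and si2 replicate 4 were left out of the comparisons with si1. Leaving out the same library without a block gave 0 genes for si1 over siSCR. For si2 over si1 it gave 74 higher and 46 lower genes. The block and the lost library were not told apart in these comparisons.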
